A study of Mus musculus with 14 samples.

Results

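Messenger RNA levels of 6 dual-specificity MAP kinase phosphatases, Dusp1, Dusp2, Dusp4, Dusp5, Dusp6 and Dusp10, were examined in regulatory T cells of mice. The members were chosen by name, and all 6 were found among the 30284 genes of the deposited tables. The cells were sorted from the spleen of C57/B6 mice as Foxp3+YFP+ cells. Control mice were Tln1wt/wt Foxp3cre/wt and the talin knockout mice were Tln1fl/fl Foxp3cre/wt, so every mouse carried 1 Foxp3 allele that drives Cre, and a library came from 1 or 2 animals. Ages and sexes are not given in the labels. The samples formed 4 control and 3 knockout-labelled units of 2 sequenced samples each, numbered as in the labels, and the 2 samples of a unit were added. No label says that different numbers are different animals, and a p-value here speaks of the spread between units, part of which may be technical.

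MAP kinases are protein kinases (ERK, JNK and p38) that are switched on by phosphorylation of a threonine and a tyrosine in their activation loop. Dual-specificity phosphatases of this family remove both phosphates and so switch the kinases off. Several of their genes are themselves transcribed quickly when the kinases are active, which makes them negative feedback regulators, and in T cells they are known as genes induced by receptor stimulation.

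Dusp5 and Dusp10 rose in the knockout-labelled units, and no member fell. Dusp5, a nuclear phosphatase that acts on ERK, was 3.38-fold higher, and Dusp10, a phosphatase of JNK and p38, was 2.37-fold higher. Dusp1 was also above all control units in all 3 knockout-labelled units, but it did not pass the test. Dusp2, Dusp4 and Dusp6 had overlapping groups. Of all 15775 genes tested, 7.07% were called higher and 6.52% lower by the same test (edgeR's quasi-likelihood test, Benjamini-Hochberg adjusted p under 0.05), and 2 of the 6 members were called higher.

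Depth and markers of other cell types differed between the groups. The units held 12851425 to 39214264 assigned reads in the control group and 38811489 to 56109143 in the knockout-labelled group. The targeted gene, Tln1, was not lower where it was labelled as knocked out: it measured between 543 and 847 CPM (counts scaled to a common library size) in the control units and between 788.3 and 1014 CPM in the others (log2 difference 0.43 ± 0.18, SE; edgeR adjusted p = 0.126). This level sums all transcripts of the gene, and reads of single exons were not examined. Whether the deletion took place was therefore not tested. Of the markers that define regulatory T cells, Foxp3 did not pass the test (log2 difference 0.03, edgeR adjusted p = 0.9227), while the interleukin 2 receptor chain Il2ra fell by 0.92 on the log2 scale (edgeR adjusted p = 0.0055). Of 9 regulatory T cell markers 2 fell, Il2ra and Ikzf2, and 0 rose. The median log2 difference of the 9 was -0.50, and 5 had an unadjusted edgeR p under 0.05 in the lower direction. The DESeq2 Wald test called 4 lower and limma-voom 2. These markers summed to 4168 to 4903 CPM in the control units and to 2684 to 3641 CPM in the knockout-labelled units. Markers of other cell types were higher in the knockout-labelled units: 8 of 12 B cell markers, 3 of 12 monocyte and macrophage markers and 10 of 12 neutrophil markers rose. So did 5 of 10 dendritic cell markers, 6 of 10 NK and CD8 T cell markers and 1 of 9 erythroid and platelet markers, and no marker of these 6 lists fell. Of the 10 neutrophil markers that rose, 9 passed the count filter only through the knockout-labelled units. The same held for 3 of the 5 dendritic cell markers and 1 of the 8 B cell markers that rose. The counts of these lists are therefore not read as support. The summed level of the B cell markers was 42.35 to 116.8 CPM in the control and 201.1 to 451.5 CPM in the knockout-labelled units. The neutrophil markers summed to 12.11 to 38.54 CPM and to 294.3 to 1635 CPM, and the monocyte and macrophage markers to 74.64 to 238.3 CPM and to 359.4 to 1022 CPM. No B cell, neutrophil, monocyte or macrophage marker was at 0 in every unit of either group. The erythroid and platelet markers summed to 9.465 to 53.83 CPM in the control units, and to 232.6, 89.9 and 2799 CPM in knockout-labelled units 1, 2 and 3, with unit 3 far above the rest. Their median log2 difference was 5.11, and 7 of the 9 had an unadjusted p under 0.05. The mean log2 level of the B cell and myeloid markers was 1.30 to 3.38 in the control and 4.50 to 5.27 in the knockout-labelled units. Fits with this mean as a covariate are given below, but the mean separates the groups. The part of such cells in the results on the phosphatases therefore cannot be told apart from the group and was not tested. Fewer cells of a type and less RNA per cell cannot be told apart in such bulk samples.

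Promoter sequences are shown first for the members above all control units. Of these, Dusp5 and Dusp1 carry matches to the motifs searched, and the stretch before the main Dusp10 transcript carries none. Dusp2, whose groups overlapped, also carries matches, so matches were not confined to the members above all control units. The sequences are those of RefSeq on GRCm38.p6, cut where the GENCODE transcript begins (36 bases left off next to the RefSeq start of Dusp5, 47 for Dusp1, 0 for Dusp10), written 5′ to 3′ on the gene's strand in lower case, with matched motifs in capitals. Dusp5 is shown on the plus strand at chr19:53528895-53529108, Dusp1 on the minus strand at chr17:26508520-26508722 and Dusp10 on the plus strand at chr1:184034131-184034380.
Dusp5: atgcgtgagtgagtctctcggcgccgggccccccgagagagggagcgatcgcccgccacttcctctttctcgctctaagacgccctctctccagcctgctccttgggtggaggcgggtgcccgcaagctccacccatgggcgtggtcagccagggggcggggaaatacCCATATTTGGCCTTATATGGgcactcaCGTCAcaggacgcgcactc
Dusp1: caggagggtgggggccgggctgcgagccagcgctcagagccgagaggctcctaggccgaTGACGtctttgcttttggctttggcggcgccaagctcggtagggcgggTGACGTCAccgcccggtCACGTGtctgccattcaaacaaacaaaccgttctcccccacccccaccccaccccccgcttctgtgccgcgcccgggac
Dusp10: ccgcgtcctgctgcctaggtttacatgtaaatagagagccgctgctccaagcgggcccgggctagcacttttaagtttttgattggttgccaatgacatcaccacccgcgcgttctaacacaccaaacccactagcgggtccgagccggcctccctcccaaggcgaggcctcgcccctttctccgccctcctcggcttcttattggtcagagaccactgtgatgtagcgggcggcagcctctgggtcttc

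The Dusp5 promoter held 2 CArG boxes, the element bound by serum response factor, side by side. They lie 82 to 73 and 72 to 63 bases upstream of the RefSeq start and read CCATATTTGG and CCTTATATGG. A CArG box was present in 1.47% of 32851 RefSeq promoters of 250 bases searched the same way, on both strands. The shorter core of the cAMP response element (TGACG), found in 17.8% of promoters, follows 55 to 51 bases upstream on the opposite strand. In the Dusp1 promoter the full cAMP response element TGACGTCA lies 143 to 136 bases upstream, a motif held by 1.55% of promoters. That promoter also had 3 such cores, 2 of which lie inside the full element, and 1 E-box CACGTG, held by 6.02% of promoters. The Dusp2 promoter, not printed, held the E-box and 1 EGR site (GCGNGGGCG, in 4.7% of promoters). Neither the Dusp6 promoter nor the stretch before the start of the main transcript Dusp10-201 had a match to any of the 8 motifs. The start of a second Dusp10 transcript, described below, was not searched. The motifs also included the AP-1 site (TGANTCA), the NF-kB site and the TATA box (TATAAA). These motifs were picked with the members' values known. A match is a description of letters and not a bound site.

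Levels of different genes were compared as TPM, which scales reads by transcript length and by library. In the control units Dusp2 measured 123 ± 19 TPM (SD, n = 4) and Dusp1 114 ± 80.4 TPM, and these 2 did not differ beyond their spread. Dusp5 followed at 26.2 ± 12.3 TPM and lay above Dusp10 in each of the 7 units. Dusp10 at 14.2 ± 1.79 TPM, Dusp4 at 13.7 ± 4.27 TPM and Dusp6 at 13.7 ± 2.66 TPM did not differ beyond their spread. In the knockout-labelled units the order was Dusp1 at 266 ± 43.3 TPM (SD, n = 3), Dusp2 at 131 ± 26.9 TPM, Dusp5 at 87.6 ± 34.9 TPM, Dusp10 at 40.8 ± 16.6 TPM, Dusp4 at 21 ± 9.96 TPM and Dusp6 at 14.2 ± 2.66 TPM. Dusp2, known as a phosphatase of activated lymphocytes, thus came first in the control means and second in the knockout-labelled means. These TPM include short transcripts that keep an intron, which for Dusp2 gave 34.8 to 56.2 TPM in the control units. Its coding transcript alone gave 63.8 to 87.4 TPM there. In knockout-labelled unit 2 that transcript (111 TPM) lay below Dusp5 (124 TPM), and in the other units above it. The 6 genes together summed to 359, 227, 245 and 388 TPM in control units 1 to 4 and to 518, 699 and 464 TPM in knockout-labelled units 1 to 3, without overlap. Dusp2 made up 60.9% and 56.9% of this sum in control units 2 and 3, 29.4% and 27.5% in control units 1 and 4, and 22.1% to 25.6% in the knockout-labelled units.

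**Figure D1:**
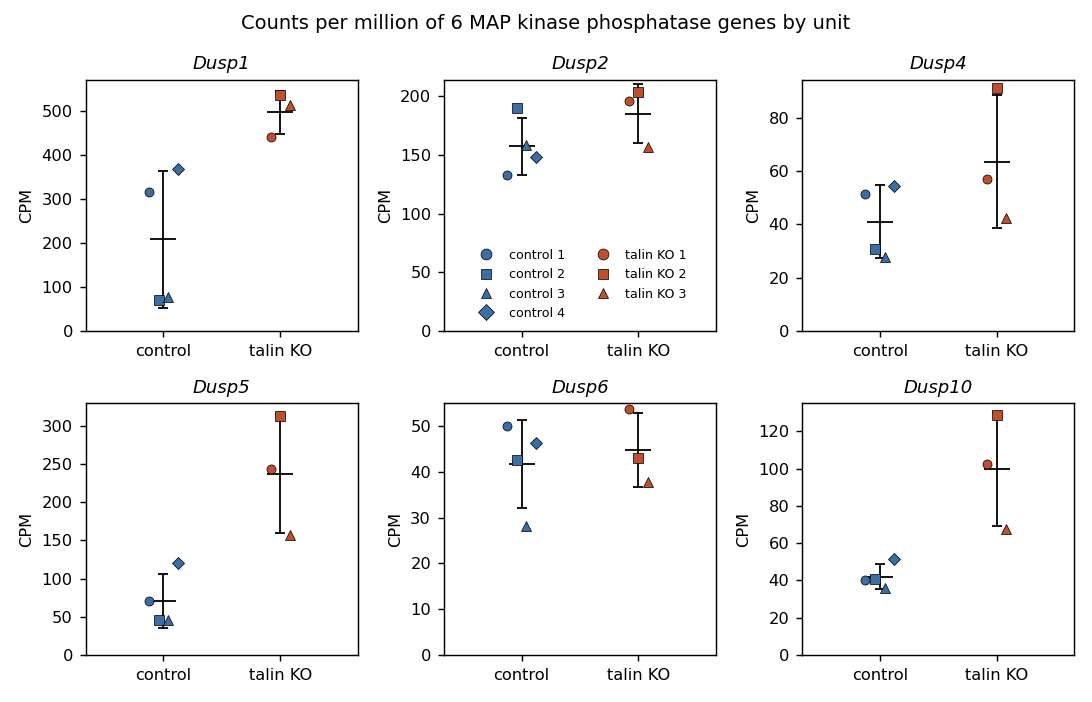
Normalized levels in CPM of the 6 phosphatase genes in the 4 control units (blue) and the 3 talin knockout-labelled units (orange); 1 symbol is 1 unit, and the horizontal bar and whiskers are the mean and SD. Dusp1, Dusp5 and Dusp10 have no overlap between the groups, and Dusp1 falls into a low and a high pair of control units.

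Dusp1 (ENSMUSG00000024190; GRCm38, chr17:26505590-26562128, minus strand) encodes a nuclear phosphatase of p38, JNK and ERK that is among the best known immediate early genes. Its transcripts in the tables lie within chr17:26505590-26508519, and any start farther upstream in the gene's interval was not searched for motifs. Its normalized level was 316.3, 71.56, 78.19 and 367.9 CPM in control units 1 to 4 and 441.9, 535.7 and 514.9 CPM in knockout-labelled units 1 to 3. The low pair was control units 2 and 3, while control units 1 and 4 were near the knockout-labelled units, though below all 3 of them. The log2 difference was 1.26 ± 0.68 (SE; 95% interval -0.42 to 2.93), with an edgeR adjusted p of 0.2603. This gene passed the test in 0 of 22 alternative fits. The interval holds both no difference and a difference larger than that of Dusp5.

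Of the nuclear phosphatases, Dusp2 (ENSMUSG00000027368; chr2:127336159-127338376, plus strand), which acts on ERK and p38, had 132.6, 189.9, 158.3 and 148.3 CPM in the control units. It had 195.4, 202.9 and 156.5 CPM in the knockout-labelled units, and the last of these lay inside the control range. The log2 difference was 0.23 ± 0.15 (SE; 95% interval -0.11 to 0.57; edgeR adjusted p = 0.3217). Its sign turned to -0.29 when a trend on GC content and length was taken out without centring, which moved the median of all genes from 0.06 to -0.27. Relative to that median the Dusp2 value was -0.02.

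Dusp4 (ENSMUSG00000031530; chr8:34807297-34819894, plus strand), a nuclear relative of Dusp1, was measured at 51.36, 30.82, 27.77 and 54.25 CPM in the control units. The knockout-labelled units gave 56.8, 90.97 and 42.47 CPM. Control units 2 and 3 were again the lowest, and knockout-labelled unit 3 lay below control units 1 and 4. The log2 difference of 0.63 ± 0.34 (SE; 95% interval -0.15 to 1.42) did not pass the test (edgeR adjusted p = 0.2371). It was 0.28 to 0.85 with 1 unit left out, lowest without knockout-labelled unit 2, and 0.10 under the uncentred GC and length trend.

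Dusp5 (ENSMUSG00000034765; chr19:53529109-53542431, plus strand) is a nuclear phosphatase specific for ERK. The control units had 70.16, 45.72, 45.33 and 120.5 CPM, and the knockout-labelled units had 243.1, 312.6 and 157 CPM. All 3 knockout-labelled units lay above all control units, with control unit 4 and knockout-labelled unit 3 the closest. Dusp5 rose by 1.76 ± 0.42 on the log2 scale (SE; 95% interval 0.76 to 2.76; edgeR adjusted p = 0.04111). The call was held when control unit 4 was left out (2.15) and was lost without any of the other 6 units, with log2 differences from 1.51 to 1.99, and with the mean level of the heat shock and dissociation stress genes as a covariate (1.46, edgeR adjusted p = 0.1734) or that of the B cell and myeloid markers (1.10, edgeR adjusted p = 0.6495). An antisense gene on the minus strand, AC137853.2, covers 547 of the 588 bases of the first exon and is not among the tables' transcripts, so its reads there, if any, cannot be told apart from Dusp5 reads in these unstranded libraries.

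Dusp6 (ENSMUSG00000019960; chr10:99263231-99267489, plus strand) encodes the cytoplasmic, ERK-specific member and is widely used as a readout of ERK activity. Its level was 50.18, 42.59, 28.19 and 46.4 CPM in the control units, against 53.74, 43.02 and 37.78 CPM in the knockout-labelled units. The groups overlapped, with control unit 3 the lowest. The log2 difference was 0.10 ± 0.20 (SE; 95% interval -0.35 to 0.55; edgeR adjusted p = 0.7616), and it turned to -0.05 without control unit 3 or without knockout-labelled unit 1 and to -0.20 under the same uncentred GC and length trend. The interval does not reach the log2 difference of Dusp5 or of Dusp10.

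Dusp10 (ENSMUSG00000039384; chr1:184013302-184075636, plus strand) acts on JNK and p38 and is found in both nucleus and cytoplasm. Its control units were close together, at 40.27, 40.59, 35.96 and 51.43 CPM. The knockout-labelled units gave 102.5, 128.8 and 67.8 CPM, all above the control range. Dusp10 rose by 1.25 ± 0.21 on the log2 scale (SE; 95% interval 0.78 to 1.71; edgeR adjusted p = 0.007291). It was called in 20 of 22 alternative fits and in all 7 fits that left out 1 unit (1.02 to 1.46). The 2 fits without the call had a covariate: the stress genes gave 1.25 (edgeR adjusted p = 0.05575), and the B cell and myeloid markers, whose mean separates the groups, gave 1.27 (edgeR adjusted p = 0.3146).

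The share of all genes called also varied between the alternative fits, and the members' calls are read beside it. Both Dusp5 and Dusp10 were called with upper-quartile scaling (12.8% of all genes called), library size alone (13.2%), DESeq2 size factors (13.5%), the stricter count filter (17.7%), the DESeq2 Wald test (16.5%), limma-voom (14.3%), the effective-length offset (9.36%), the replicate number as a block (3.88%) and without control unit 4 (4.87%). They were also both called with the first (14.1%) or the second (13.7%) sample of each unit alone. Dusp10 alone was called with no count filter (9.53%), with the GC and length trend taken out uncentred (21.1%) or centred (9.48%), and without any 1 of the other 6 units (6.2% to 12.2%). Neither gene was called with the stress genes (2.47%) or the B cell and myeloid markers (0.0634%) as a covariate.

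**Figure D2:**
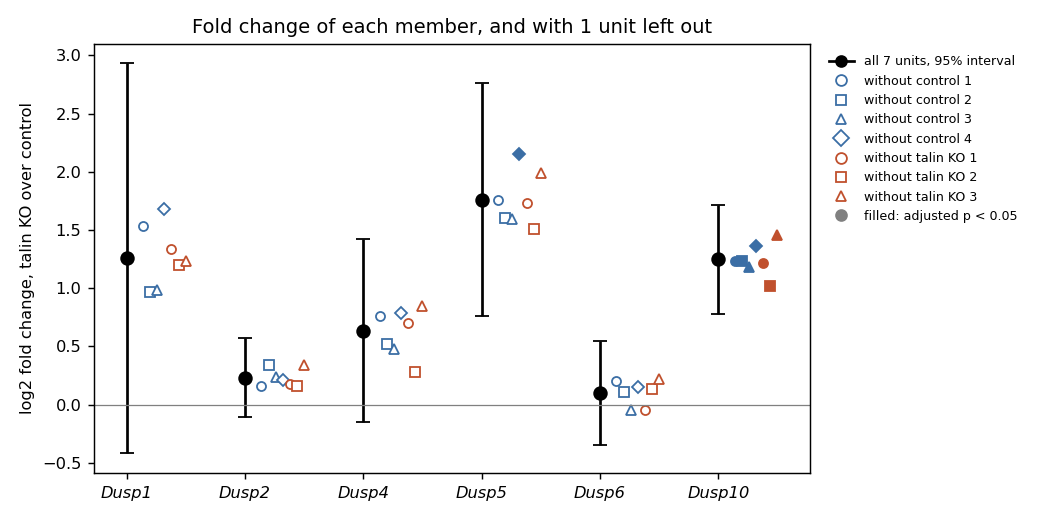
Log2 fold change of each phosphatase gene, knockout-labelled over control, from edgeR; black points and whiskers are the estimate and its 95% interval over all 7 units, and open or filled symbols are the estimates with 1 unit left out, filled where the adjusted p was under 0.05. Dusp10 was called in all 7 fits with 1 unit left out, Dusp5 in 1 and the other 4 genes in none.

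Among all genes tested, 16.7% had all knockout-labelled units above all control units, and 3 of the 6 members (Dusp1, Dusp5 and Dusp10) did. The median log2 difference was 0.94 over the 6 members and 0.06 over all genes. Whether 2 members moved differently was tested on the log2 ratio of their TPM values in each unit, over 15 pairs. The ratios of 7 pairs did not overlap between the groups and reached p = 0.0571, the smallest that a two-sided exact permutation test of 4 against 3 units can give. Of single genes, 30.8% had groups without overlap in either direction. The share over all pairs of genes was not computed, and the 15 pairs reuse 6 genes. The 7 pairs are therefore not read as separate results. After Benjamini-Hochberg adjustment over the 15 pairs the lowest p was 0.122 (exact permutation test), so no pair passed, and this design could not have made 1 pass. The log2 ratio of Dusp10 to Dusp6 was 0.07 ± 0.23 in the control units, against 1.46 ± 0.46 in the knockout-labelled units (SD). The ratio of Dusp10 to Dusp5 was -0.78 ± 0.46 and -1.10 ± 0.09, with overlapping groups and a difference of -0.32 (adjusted p = 0.468, exact permutation test).

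The control units differed among themselves along the stress and early response lists. The mean log2 level of 17 heat shock and dissociation stress genes was 6.56 and 6.55 in control units 1 and 4, 5.47 in both control units 2 and 3, and 6.32 to 7.30 in the knockout-labelled units. The mean of 25 early response genes, which lists no Dusp gene, was 6.18 and 6.31 in control units 1 and 4, 5.11 and 4.90 in units 2 and 3, and 6.81 to 7.18 in the knockout-labelled units. Dusp1, Dusp4, Dusp5 and Dusp6 followed the same split of the control units, each with units 2 and 3 below units 1 and 4. For Dusp6 units 2 and 4 were close, at 42.59 and 46.4 CPM. Dusp2 had the reverse order, with 189.9 and 158.3 CPM in units 2 and 3 against 132.6 and 148.3 CPM in units 1 and 4. For Dusp10, control unit 3 was lowest (35.96 CPM) and unit 4 highest (51.43 CPM), with 40.27 CPM in unit 1 and 40.59 CPM in unit 2.

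**Figure D3:**
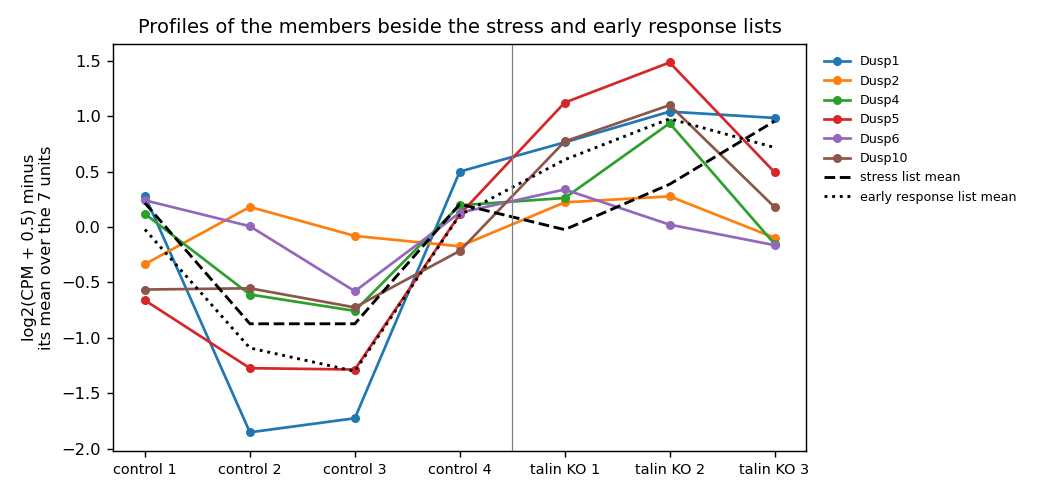
Log2(CPM + 0.5) of each phosphatase gene minus its own mean over the 7 units, with the mean of the stress list (dashed) and of the early response list (dotted) treated the same way; lines join values of 1 gene and the order of units has no meaning. Dusp1 is lowest in control units 2 and 3, where both list means are lowest too.

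The genes with the most similar profile over the 7 units were found by the root mean square difference between centred log2 CPM profiles, among 8770 genes. For Dusp1 these were Gem (0.12), Sik1 (0.18) and Klf6 (0.22). For Dusp5 they were Fosl2 (0.27), Nr4a1 and Csrnp1 (both 0.31), all larger distances than those of the nearest genes of the other members. Dusp10 was nearest to Zc3h12a (0.17), Klf2 and Zfand2a (both 0.20). Dusp4 was nearest to Tgif1 (0.10), Nfkbiz and Pik3c2b (both 0.18). The nearest genes of Dusp2 were Ankrd50 (0.05), Dirc2 and Irak2 (both 0.07), and those of Dusp6 were Kctd6 (0.08), Ddx3x (0.12) and Ubl5 (0.13). Among the members themselves the smallest distance was that of Dusp2 and Dusp6 (0.34), and the largest that of Dusp1 and Dusp2 (1.18).

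Annotated transcripts were compared next, because 3 of the members have more than 1 in the tables. Dusp10 has a main transcript, Dusp10-201, and a short protein-coding transcript, Dusp10-202 (ENSMUST00000139839; chr1:184013302-184037274), of 724 bases in 3 exons. Dusp10-202 starts 21079 bases upstream of Dusp10-201. Its first 2 exons, of 133 and 117 bases, are its own, and its last exon begins where exon 2 of Dusp10-201 does. Of its 694 words of 31 bases, 250 occur in no other Dusp10 transcript and none occurs in another gene.

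Dusp10-202 was assigned 14.48, 0, 0 and 2.759 estimated reads in the control units, against 209.1, 408.9 and 284.1 in the knockout-labelled units. Control units 2 and 3 were at 0 of 831 and 0 of 1440 Dusp10 reads, which allows a share of up to 0.361% and 0.208%, for counting error only. In TPM the transcript measured 1.86, 0, 0 and 0.328 in the control units, against 7.04, 17.9 and 7.46 in the knockout-labelled units. The difference was 2.96 ± 0.49 (SE) on the log2(TPM + 1) scale, which understates changes of low values (limma, adjusted p = 0.02807). With 3 of its 4 control values under 1 TPM, Dusp10-202 met the required mean of 1 TPM only through the knockout-labelled units, and this p is not read as support. With a required mean of 0.1 TPM, which its control units meet alone, the adjusted p was 0.03517 (limma), and with 0.1 in place of 1 added to the TPM it was 0.07727 (5.03 ± 1.11). Of the other 9 member transcripts 0 were called by limma, against 2.23% of all 33272 transcripts. Dusp10-201 showed a difference of 1.02 ± 0.26 on that scale (limma adjusted p = 0.08536), and the single transcript of Dusp5 one of 1.72 ± 0.39 (limma adjusted p = 0.06327).

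Shares of a gene's reads on its transcripts were compared for 3 genes, chosen after their values were seen. Dusp10-202 took 2.83%, 0%, 0% and 0.409% of the Dusp10 reads in the control units, against 4.52%, 8.1% and 7.42% in the knockout-labelled units. The transcripts of Dusp1 that keep an intron took 31.5%, 39.5%, 48.1% and 35.7% of its reads in the control units, against 26.9%, 25.3% and 27.1% in the knockout-labelled units. The intron-keeping transcript of Dusp2 took 20.5%, 18.7%, 20.9% and 16% in the control units, against 13.2%, 14.1% and 12.7% in the knockout-labelled units. For each gene the groups did not overlap, and each of the 3 shares had p = 0.0571 (two-sided exact permutation test, the smallest possible, before and after adjustment over the 3). Such shares were not computed for other genes, so there is no background to set these 3 beside. With the second sample of each unit alone, the p of the Dusp10-202 share was 0.114 (exact permutation test). Unspliced RNA and a true intron-keeping transcript cannot be told apart in these tables.

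**Figure D4:**
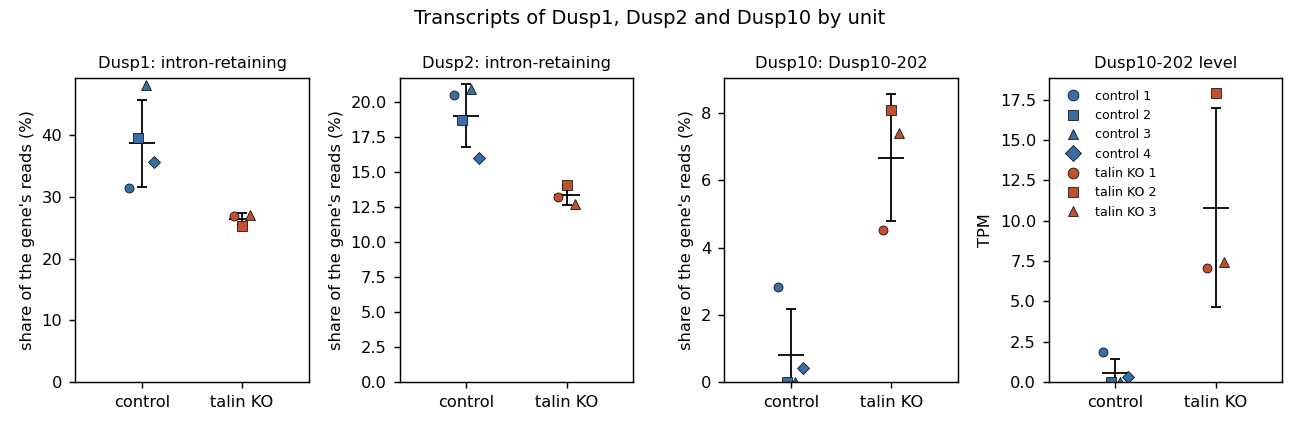
Share of a gene's estimated reads on the intron-keeping transcripts of Dusp1 and Dusp2 and on Dusp10-202, in percent, and the level of Dusp10-202 in TPM, for each of the 7 units; the bar and whiskers are the mean and SD. The intron-keeping shares were lower and Dusp10-202 was higher in all 3 knockout-labelled units than in any control unit.

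Beyond the members, 98 tested genes of the MAP kinase pathway on 10 lists gave 4 that rose and 5 that fell, against 13.6% of all genes called in either direction, with a median log2 difference of 0.01. The 9 calls became 1 without control unit 4, 2 without knockout-labelled unit 2, 3 without control unit 2 and 5 without control unit 1 or knockout-labelled unit 3. Spry2 was called with any 1 unit left out, and each of the other 8 lost its call or could not be fitted in at least 1 such fit. Of the 4 counted as higher, 1 (Mapk13) passed the count filter only through the knockout-labelled units. The other MAP kinase phosphatases gave 0 calls among 4 by edgeR, though 3 had an unadjusted p under 0.05, 2 were called by the DESeq2 Wald test and 1 by limma-voom: Dusp7, a cytoplasmic phosphatase of ERK, had a log2 difference of -0.49 ± 0.15 (SE; edgeR adjusted p = 0.05571), Dusp8 of 3.53 ± 1.09 (edgeR adjusted p = 0.06275) at no more than 5.278 CPM, Dusp9 of 1.41 ± 0.62 and Dusp16 of 0.28 ± 0.24. Dusp8 and Dusp9 passed the count filter only through the knockout-labelled units, where they were higher. Of 11 atypical dual-specificity phosphatases, which lack the MAP kinase binding domain, Dusp19 fell by 0.85 on the log2 scale (edgeR adjusted p = 0.04597) but had a value of -0.20 once a centred GC and length trend was taken out (edgeR adjusted p = 0.6322). Of 8 other phosphatases of MAP kinases, such as Ptpn7, 0 were called by edgeR, the DESeq2 Wald test or limma-voom, and 1 had an unadjusted p under 0.05.

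Among the kinases, Mapk13, a p38 kinase, is among the 4 counted as higher but stayed at or under 0.6376 CPM, and 3 of the 4 control units were at 0. It passed the count filter only through the knockout-labelled units, so its call is not read as a change. Of 7 MAP kinase kinases 0 were called by edgeR, the DESeq2 Wald test or limma-voom, and 2 had an unadjusted p under 0.05. Map3k5, a kinase that activates the JNK and p38 branches, fell by 0.53 ± 0.13 (edgeR adjusted p = 0.02973) but had a value of 0.10 with an offset for effective length. Rps6ka3, a kinase downstream of ERK, fell by 0.46 ± 0.14 (edgeR adjusted p = 0.04921) but had a value of 0.11 once a centred GC and length trend was taken out.

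Upstream of the kinases, Rasgrp4, an activator of Ras, rose by 0.95 ± 0.20 (edgeR adjusted p = 0.01672), but had a value of 0.39 under the uncentred GC and length trend (edgeR adjusted p = 0.1846). Rasa1, which switches Ras off, fell by 0.73 ± 0.20 (edgeR adjusted p = 0.03664), but had a value of -0.24 under the centred trend (edgeR adjusted p = 0.2297). These were the 2 calls among 14 Ras switch genes. Spry2, a feedback inhibitor of the pathway, rose by 3.33 ± 0.48, from at most 0.8381 CPM in any control unit to between 3.896 and 5.777 CPM (edgeR adjusted p = 0.003391), the only call among 6 Sprouty and Spred genes. Spry1 had a log2 difference of -0.56 ± 0.18 (edgeR adjusted p = 0.05917). Of 17 transcription factors that MAP kinases target, Mef2c rose (3.18 ± 0.76, edgeR adjusted p = 0.04252). Mef2c is also abundant in B cells and myeloid cells, whose markers were higher in the same units, and their part in this result cannot be told apart from the group. The part of other cells in the Spry2 and Rasgrp4 results cannot be told apart from it either. With the B cell and myeloid markers as a covariate Spry2 had 2.66 (edgeR adjusted p = 0.3518) and Rasgrp4 1.63 (edgeR adjusted p = 0.2109).

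Early response genes, which include known targets of the MAP kinase cascade, were described as a list of their own. Of 25 tested, 9 rose and 0 fell by edgeR, against 7.07% of all genes called higher, with a median log2 difference of 1.19. With 1 unit left out 4 to 9 of them rose, the fewest without knockout-labelled unit 2, and 4 rose with the stress genes and 0 with the B cell and myeloid markers as a covariate. The DESeq2 Wald test called 12 higher and 1 lower, and 2 had an unadjusted edgeR p under 0.05 in the lower direction. These 2 were Egr2 (-0.48 ± 0.17, edgeR adjusted p = 0.08117) and Nr4a3 (-0.61 ± 0.26, edgeR adjusted p = 0.1406). Egr1, an immediate early transcription factor, rose by 1.31 ± 0.14, from 81.54 ± 11.7 CPM to 202.1 ± 15.89 CPM (edgeR adjusted p = 0.000851). Zfp36 and Ier2 also rose, by 1.38 and 1.34 on the log2 scale. Ier3, also counted, had 5.37 but passed the count filter only through the knockout-labelled units. Fos and Jun had large differences with wide spread in the control units, as Dusp1 did: 1.85 ± 0.95 for Fos (edgeR adjusted p = 0.2449) and 2.08 ± 0.81 for Jun (edgeR adjusted p = 0.1434). Of 17 stress genes 2 rose, Atf4 (0.99 ± 0.18) and Dnajb1 (1.03 ± 0.25). The list of early response genes was chosen with results of these data known and shares the units of the phosphatase comparison, so its count is not independent support.

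**Figure D5:**
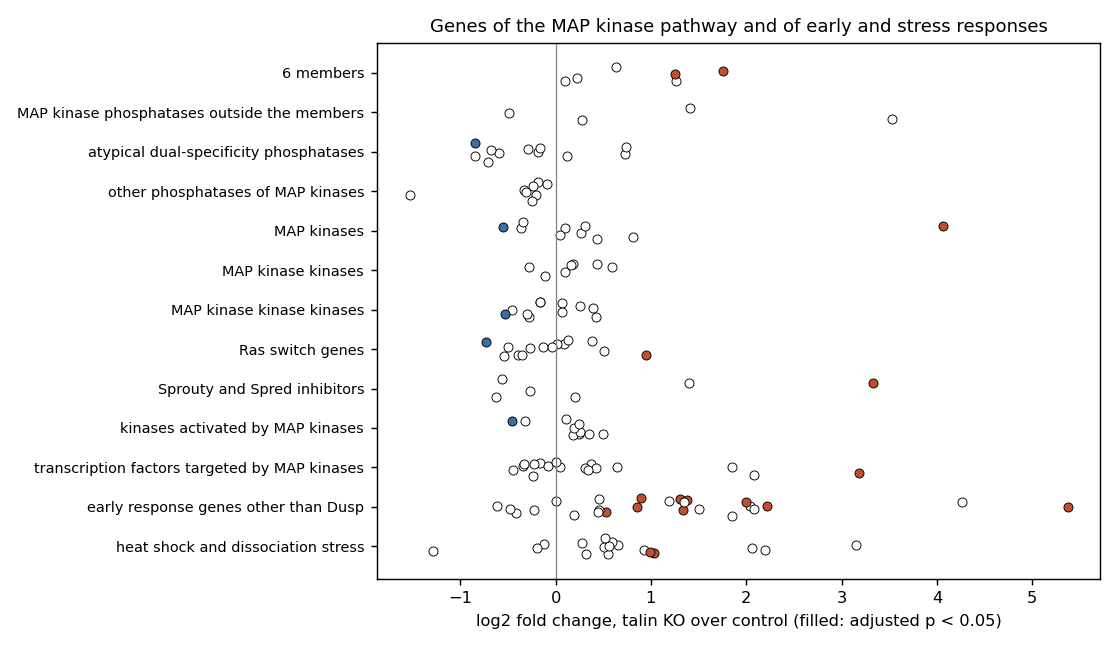
Log2 fold change, knockout-labelled over control, of each tested gene of the MAP kinase pathway lists and of the early response and stress lists; 1 point is 1 gene, orange where it rose and blue where it fell at an edgeR adjusted p under 0.05, and open otherwise. The early response row holds 9 genes that rose and 0 that fell, and the 10 pathway rows between the members and it hold 4 that rose and 5 that fell.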

How the data were processed

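Per the submitters' processing notes, the 14 tables were made with kallisto on GRCm38. The kallisto version and annotation are not given in the sources used here. Each table holds expected counts, the reads estimated for each transcript, which the authors deposited unscaled. It also holds TPM, per the file headers, and the TPM of a unit was recomputed here from summed reads and the deposited effective lengths (other columns, equal in all tables). Libraries were non-stranded, per the labels' protocols. Of 88198 transcripts, 2079 had no gene in the GENCODE annotation of GRCm38 and were left out (1.17% to 1.28% of reads). Estimated counts were summed per gene, the 2 samples of a unit were added, and sums were rounded.

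The test was edgeR 4.0.16 in R 4.3.3 with limma 3.58.1: TMM normalization, filterByExpr, a robust quasi-likelihood fit with group as the only term, Benjamini-Hochberg adjustment over 15775 genes, and an FDR of 0.05. CPM were scaled by TMM library sizes. SE were derived from the F statistic, and intervals from the gene's own degrees of freedom. The step was tested on simulated counts. Transcripts averaging 1 TPM or more were compared with limma on log2(TPM + 1). Genes of like pattern had a mean of at least 10 CPM and were named 3 per member, leaving out pseudogenes and genes named only by number; of each list, up to 4 called genes with the smallest adjusted p were to be named, and list genes that did not pass appear where a list is described. Fos, Jun, Egr2, Nr4a3, Spry1 and Ptpn7 were named after their values were seen. A gene that the rule takes is not reported here, though it is kept in the counts.

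The members, gene lists and tests were chosen with earlier results of these data known. DESeq2 1.42.0, other scalings, filters, covariates, offsets and units left out were alternatives. Same-numbered units of the groups did not deviate together, so the numbers were not used as pairs. The GC and length trend was first taken out as fitted. A version with each unit's trend centred on its median was added after that result had been seen, and both are reported. The 3 transcript shares with their alternatives, and the choice of the 8 promoter motifs, also came after values had been seen. Of the members, 5 had a RefSeq promoter entry; Dusp4 had none in the table used.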

Additional observations from a re-analysis of the deposited data

Results flagged for a closer look

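In the 4 control units, the share of Dusp10 reads on Dusp10-202 was 2.83% in unit 1 against 0%, 0% and 0.409% in the others. The gap to the nearest unit was 0.855 of the whole range, above Dixon's 95% critical value for 4 samples. Both sequenced samples of control unit 1 held such reads, 5.43 and 9.05. Chance flags about 1 in 20 groups. The rule was applied to the control values of each member's CPM and TPM, of the 3 shares and of the 15 pair ratios. This was the only flag, and it rests on few estimated reads.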

How the results depend on the processing

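Of the 2 phosphatase genes called, 1 was called with no filter on low counts and with the GC and length trend taken out, centred or not, 0 with the stress list as covariate and 0 with the B cell and myeloid markers as covariate; leaving out 1 unit gave 1 to 2. The 9 pathway calls (4 higher, 5 lower) became 5 with no filter (2 and 3), 20 by the DESeq2 Wald test (8 and 12), 5 with the effective-length offset (4 and 1), 18 with the uncentred GC and length trend (2 and 16), 1 with the stress covariate and 0 with the marker covariate; leaving out 1 unit gave 1 to 8. The 2144 calls over all genes became 3576 by the DESeq2 Wald test, 3334 with the uncentred trend, 389 with the stress covariate and 10 with the marker covariate; leaving out 1 unit gave 758 to 1905. The share of calls that were higher was 52.1%, but 22.9% with the uncentred trend, 64.2% with the centred one and 20% with the marker covariate, and 47.4% to 63.8% with 1 unit left out. The uncentred trend was the form first run, and centring was chosen after its result was seen.

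With the replicate number as a block, 1 pathway gene and 612 genes in all were called, and Dusp5 (2.12) and Dusp10 (1.31) were still called. Correlations of deviations between same-numbered units were 0.02, -0.17 and -0.04. Whether such units share a batch or a day was not tested.

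Signs turned for Dusp2 (-0.29) and Dusp6 (-0.20) under the uncentred trend, for Rps6ka3 (0.11) under the centred one, for Map3k5 (0.10) with the effective-length offset, for Dusp6 (-0.05) without control unit 3 or knockout-labelled unit 1 (-0.05 to 0.22 over the 7 units left out), and for Dusp1 (-1.07), Dusp4 (-0.06), Dusp6 (-0.66) and Mapk13 (-1.49) with the marker covariate. The marker mean separates the groups, so that covariate cannot tell other cells apart from the group. The 1 member transcript past the threshold became 0 with a pseudocount of 0.1. Apart from the number of units, the causes were not tested. Dusp5 was called in 11 of 22 alternatives. With 4 and 3 units an exact test cannot go below 0.0571.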
